A study of Mus musculus with 2 samples.

Results

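This account describes 10 genes known from fetal liver and from imprinted chromosome domains: H19, Igf2, Igf2r, Afp, Gpc3, Dlk1, Meg3, Peg3, Mest and Bex1. They were taken by name, and all 10 were found among the 31053 genes counted. RNA was measured in single cells by droplet sequencing of transcript 3′ ends in a mouse model of hepatocellular carcinoma, in which floxed alleles of the Rb family genes (Rb1, Rbl1 and Rbl2, restrainers of E2F factors) were recombined by Cre. Sorted YFP-positive cells, in which Cre had acted per the labels, made up both libraries. The early library pooled lesions of 3 mice, and no file says which cell came from which mouse. The macroscopic library came from macroscopic lesions, and the labels do not give how many mice contributed. Both stages carry the same knockout and were untreated, so neither is a control with an intact Rb family. The labels give no strain, age or Cre driver.

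Imprinted genes are transcribed mainly from the copy inherited from 1 parent. H19, a long non-coding RNA read from the maternal copy, and Igf2, a growth factor read from the paternal copy, lie side by side and share enhancers, with an insulator bound by CTCF between them. Dlk1 and Meg3 form a similar neighbouring pair of paternal and maternal genes. Igf2r, maternal in mice, encodes the receptor that takes up and clears IGF2. In liver several of these genes, with Afp and the proteoglycan gene Gpc3, are abundant before birth and low in the adult, and they are known as markers of hepatoblasts and of liver cancer. The counts do not tell parental copies apart.

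With 1 library per stage, differences between stages have no replicate check, and no p-value was computed. Levels are UMI counts (distinct captured molecules) summed over barcodes and scaled to a common total (CPM), with exact Poisson 95% intervals. For ratios of CPM the 95% interval is the exact conditional binomial one, and for shares of barcodes it is Clopper-Pearson's. These intervals hold the error of counting and nothing else. A gene counted as measured with at least 10 CPM in 1 of the compared sums and 20 UMIs in both together, and as higher or lower from a 2-fold CPM ratio.

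Of 3221 early barcodes 2620 held at least 1000 UMIs, and of 256 macroscopic barcodes 241 did. The libraries shared 0 barcodes. Hepatocyte barcodes, with at least 0.5% of UMIs from the albumin gene Alb, numbered 67 and 103, with medians of 15463 and 23459 UMIs. The other classes were set by UMIs of Krt19 and Krt7 (duct, 101 early and 1 macroscopic), of Clec4f, Cd5l and Marco (Kupffer cells, the resident liver macrophages, 1932 and 4), of Plvap and Gpihbp1 (endothelial, 25 and 31) and of Col1a1 and Col3a1 (fibroblast, 5 and 7). A barcode can meet several rules: 10 of the 67 early hepatocyte barcodes also met the duct rule, and all 7 macroscopic fibroblast barcodes met another. All 6 hepatocyte markers had UMIs in both hepatocyte sums, summing to 43511 CPM early and 55544 CPM macroscopic. The 7 duct markers summed to 5648 CPM in early and 2902 CPM in macroscopic hepatocyte barcodes, and the 6 Kupffer markers to 86.4 CPM and 5.50 CPM. The part of such other cells in the results below was not tested, except where values with and without them are given. Sex-linked genes differed between the libraries. Xist had 10348 early and 0 macroscopic UMIs, whereas the Y-linked gene Eif2s3y had 4 and 370. Stage and sex therefore cannot be told apart, which bears on the X-linked genes Gpc3 and Bex1 among others.

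Hepatocyte barcodes of both stages held H19 and Bex1, with more H19 early. Macroscopic ones held more Igf2 and, in a minority of barcodes, Meg3. Between the stages, 7 of the 10 genes were measured. Igf2 and Meg3 were at least 2-fold higher in the macroscopic sum, where 8.45% of all measured genes were. H19, Gpc3 and Peg3 were at least 2-fold lower, where 18.9% of all measured genes were. The median log2 ratio was 0.25 over the 7 genes and -0.29 over all 9057 measured genes. Igf2r and Bex1 stayed within 2-fold, and Afp, Dlk1 and Mest had too few UMIs for a ratio.

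**Figure D1:**
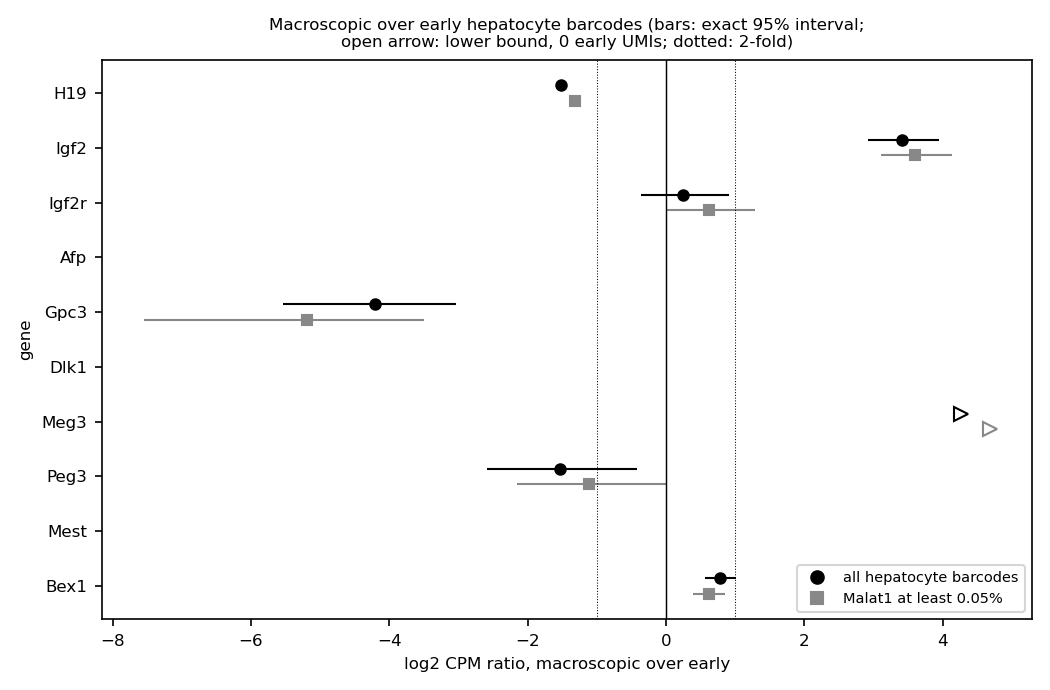
Log2 CPM ratio of macroscopic over early hepatocyte barcodes (x axis) for each gene (y axis), over all hepatocyte barcodes (black circles) and over those with at least 0.05% Malat1 (grey squares), with exact 95% intervals; open arrows are lower bounds against 0 early UMIs and dotted lines mark 2-fold. Igf2 (3.41 and 3.60) and Meg3 lie to the right, H19 (-1.52 and -1.31) and Gpc3 (-4.20 and -5.19) to the left, and Afp, Dlk1 and Mest have no point because they were not measured.

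H19 (ENSMUSG00000000031, chromosome 7, 142575529 to 142578143, minus strand, GENCODE M21 on GRCm38) is also the host of a microRNA, which lies in an exon of H19. Its mature forms are shown because a 3′ library counts the host RNA and not the microRNA cut from it. Capitals mark the seed, bases 2 to 8, and the sequences are from RefSeq (GRCm38.p6).
miR-675-5p: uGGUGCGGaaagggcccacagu
miR-675-3p: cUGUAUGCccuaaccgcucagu
The seeds of both forms differ, and no value in these files measures either of them.

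In early hepatocyte barcodes H19 ranged from 0 to 16466 CPM with a median of 2415 CPM. In macroscopic ones it ranged from 0 to 7208 CPM with a median of 979 CPM. The ranges overlap, but 11 of 67 early barcodes and 0 of 103 macroscopic barcodes lay above 10000 CPM. The sums gave 6091 UMIs or 5661 CPM (5519 to 5805) early and 10415 UMIs or 1976 CPM (1939 to 2015) macroscopic, a level 2.86-fold lower (2.77 to 2.96) in the macroscopic library. H19 was detected in 65.7% of early hepatocyte barcodes (53.1 to 76.8) and in 91.3% of macroscopic ones (84.1 to 95.9) at these unequal depths. As background for detection, 18 of 1932 early Kupffer barcodes (0.932%, median depth 2557 UMIs) held an H19 UMI.

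With each barcode thinned to 5000 UMIs, H19 was present in 42 of 58 early barcodes (72.4%, 59.1 to 83.3) and in 78 of 95 macroscopic ones (82.1%, 72.9 to 89.2), shares whose intervals overlap. The mean thinned count was 23.8 early and 7.07 macroscopic. The variance over the mean, 1 for Poisson sampling, was 27.1 and 9.16, a measure that rises with the mean. The variance over the squared mean was 1.14 early and 1.30 macroscopic, but the macroscopic value pools unlike barcodes. Over the 40 macroscopic barcodes that reached the Malat1 limit described below it was 0.84, and over the 55 others 1.62. All 58 early barcodes reached that limit, and their value includes the 16 without H19. Whether the spread relative to the level differed between the stages was not tested. Among early barcodes, 16 had 0 H19 UMIs, 6 had 1 to 5, 9 had 6 to 20 and 27 had 21 to 100. Among macroscopic barcodes, 17, 35, 36 and 7 lay in those ranges.

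Most early barcodes without H19 held Epcam or many mitochondrial UMIs. Of the 67, 15 held at least 2 UMIs of Epcam, an epithelial gene of bile ducts and progenitors, and 10 of these met the duct rule. This split was chosen after the values had been seen. In those 15 barcodes H19 was present in 1, at 94.3 CPM over the sum, and Spp1, a duct gene, stood at 24982 CPM. Another 5 barcodes had over 25% mitochondrial UMIs and no UMI of any of the 10 genes. In the remaining 47 barcodes H19 was present in 43 (91.5%, 79.6 to 97.6), with a median of 5999 CPM and a sum of 6880 CPM (6708 to 7055). Leaving Epcam-containing barcodes out of both libraries, the log2 ratio of H19 was -1.42. The barcodes left out were unlike in the 2 libraries. Early ones held duct markers at 27950 CPM and hepatocyte markers at 15795 CPM. Macroscopic ones held duct markers at 3370 CPM and hepatocyte markers at 53989 CPM. In the macroscopic library this step therefore removed hepatocyte-like barcodes and not duct-like ones. With hepatocyte barcodes taken from 0.2% Alb, it was -0.63 and H19 was no longer 2-fold lower. Leaving out the 24 macroscopic barcodes above 100000 UMIs gave -2.43.

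**Figure D2:**
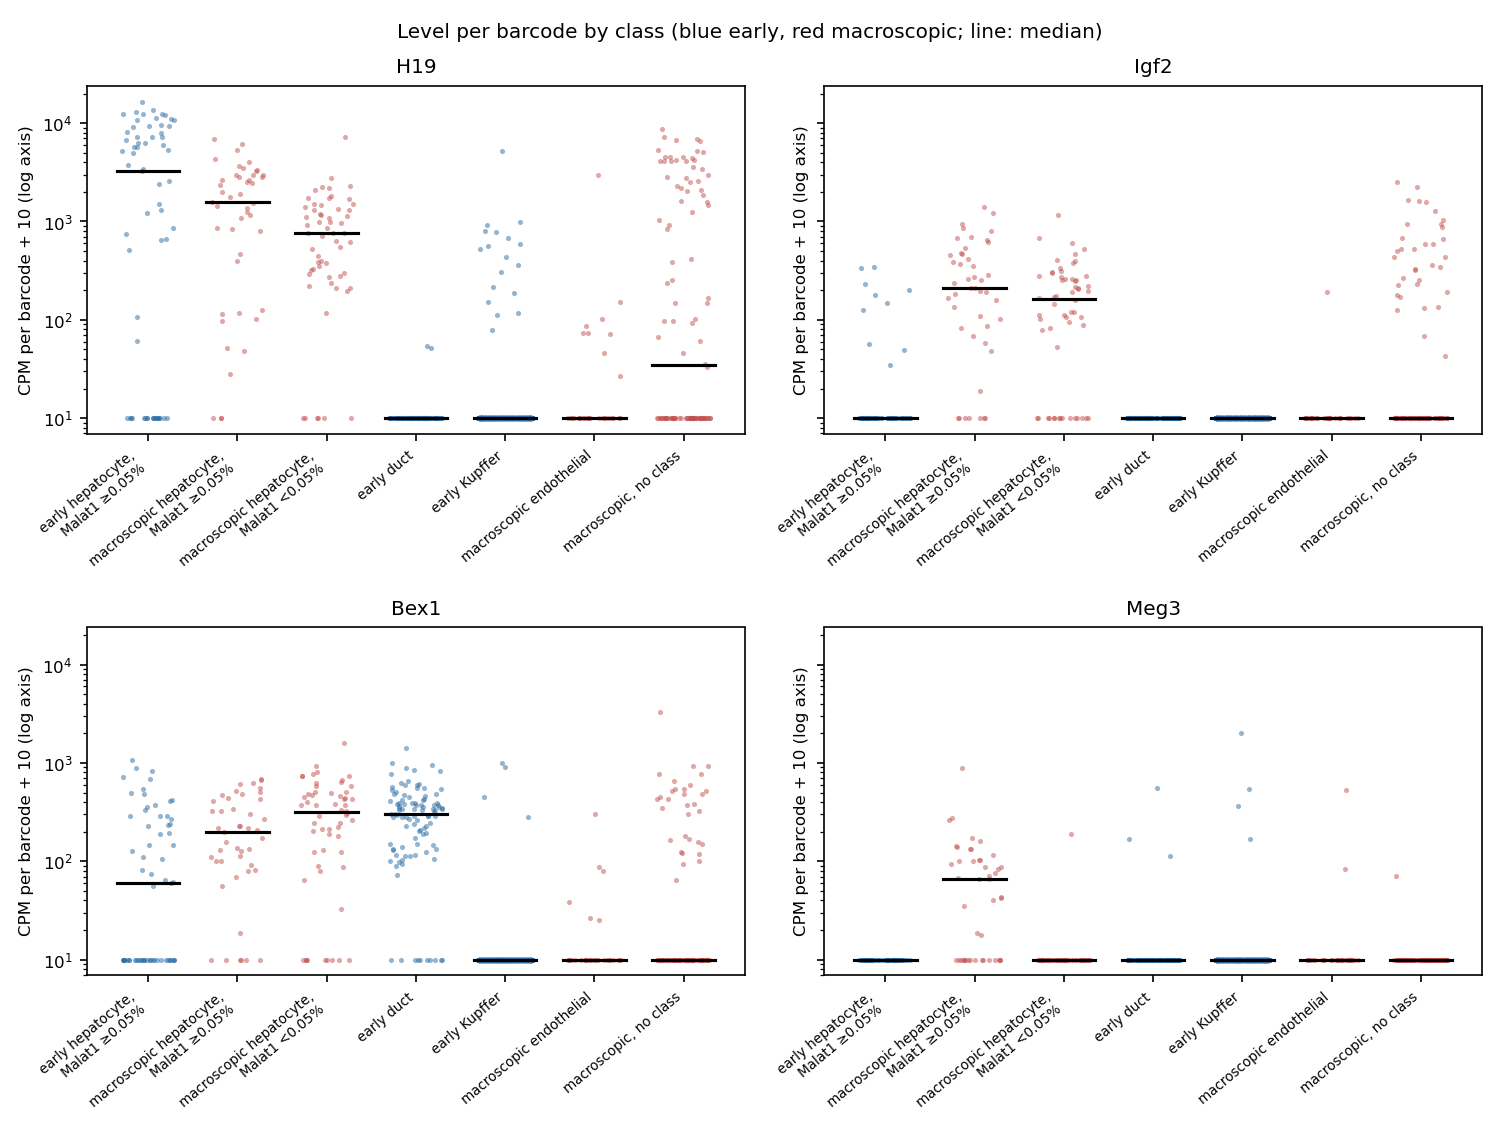
Level per barcode of H19, Igf2, Bex1 and Meg3, as CPM + 10 on a log axis, by barcode class on the x axis, with 1 point per barcode, early in blue and macroscopic in red and the class median as a black line; barcodes at the bottom have 0 UMIs. H19 is high in hepatocyte barcodes of both stages, and Igf2 is frequent in macroscopic hepatocyte barcodes. Meg3 is found mainly in macroscopic hepatocyte barcodes with Malat1, and Bex1 is also high in early duct barcodes.

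Igf2 (ENSMUSG00000048583, chromosome 7, 142650766 to 142666816, minus strand) is separated from H19 by a gap of 72.6 kb. A further annotated gene, Gm49394, overlaps it on the same strand, so reads of the 2 can be confused. Igf2 hosts miR-483, whose mature forms from RefSeq are shown with seeds in capitals for the same reason as above. They lie outside the exons of Igf2.
miR-483-5p: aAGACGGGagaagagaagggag
miR-483-3p: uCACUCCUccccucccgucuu
None of the 4 microRNAs of the H19 and Igf2 hosts shares a seed with another.

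Igf2 was found in few early hepatocyte barcodes and was common in macroscopic ones. Early barcodes ranged from 0 to 331 CPM with a median of 0, and 10 of 67 held a UMI. Macroscopic barcodes ranged from 0 to 1404 CPM with a median of 180 CPM, and 81 of 103 held a UMI. The sums were 34 UMIs or 31.6 CPM (21.9 to 44.2) and 1771 UMIs or 336 CPM (321 to 352), a level 10.6-fold higher (7.58 to 15.4) in the macroscopic library. At 5000 UMIs per barcode Igf2 was present in 12.1% of early barcodes (4.99 to 23.3) and in 53.7% of macroscopic ones (43.2 to 64.0). The early Kupffer sum held 0 Igf2 UMIs in 1932 barcodes, which allows a level of up to 0.432 CPM. Over the alternatives tried, the log2 ratio of Igf2 ran from 2.69 to 4.29. Its level differed with Alb content. At 0.5 to 1%, 1 to 3% and 3% Alb or more, early barcodes stood at 24.6, 15.2 and 87.7 CPM. The last value was in 5 of 9 barcodes (52.8 to 137). Macroscopic barcodes stood at 119, 194 and 490 CPM in the same ranges.

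H19 was lower and Igf2 higher in the macroscopic sum, yet both genes occurred in the same barcodes. All 7 thinned early barcodes with Igf2 also had H19, and 35 others had H19 alone. In the macroscopic library 46 of 95 thinned barcodes had both, 32 H19 alone, 5 Igf2 alone and 12 neither. Spearman's rho of the thinned counts was 0.48 over those 95 barcodes, 0.51 over the 40 with Malat1 and 0.39 over the 55 without. These barcodes share 1 library and their values share its RNA quality, so rho is a description and carries no p. H19 and Bex1 gave -0.39 over the 58 early barcodes, where 1 of the 15 Epcam-containing barcodes held H19 and 13 held Bex1 before thinning, and -0.01 over the 95 macroscopic ones.

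**Figure D3:**
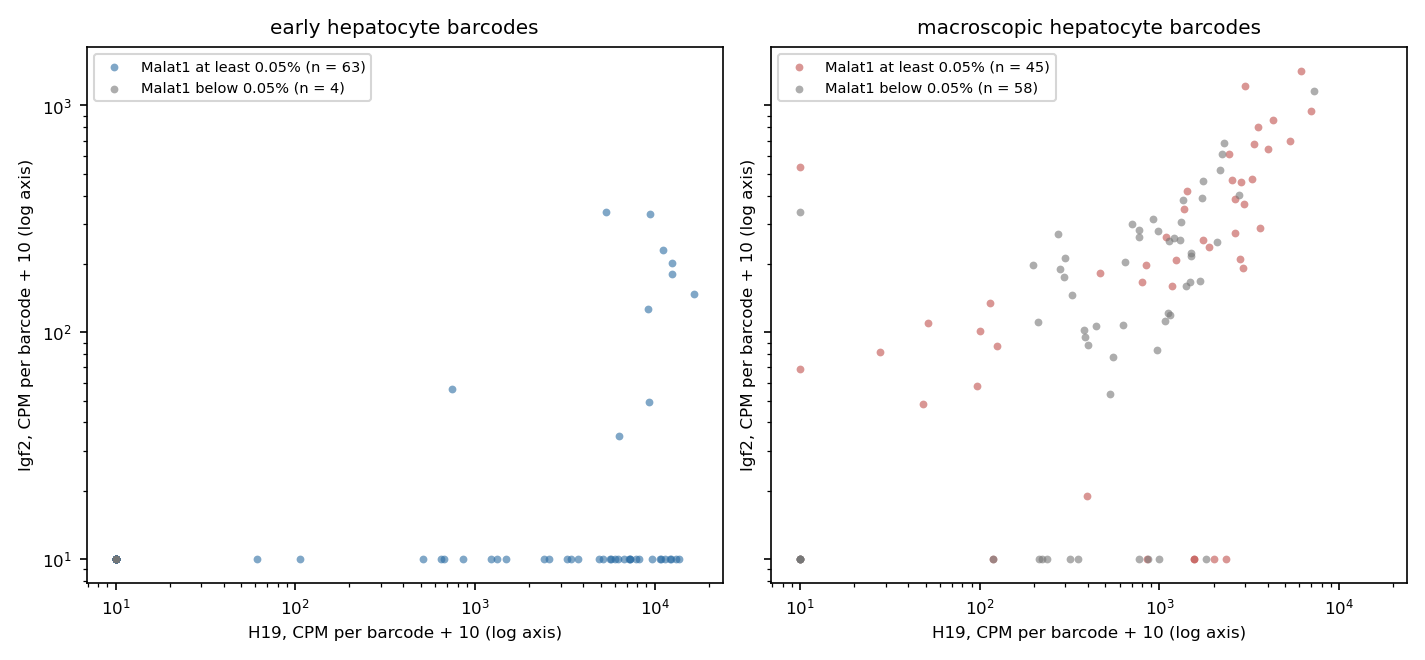
Igf2 against H19 per hepatocyte barcode, both as CPM + 10 on log axes, in the early library (left, blue) and the macroscopic library (right, red), with Malat1-poor barcodes in grey. Early barcodes with Igf2 lie among those with H19, whereas macroscopic barcodes with more H19 tend to hold more Igf2 (rho 0.48 at equal depth).

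Igf2r (ENSMUSG00000023830, chromosome 17, 12682406 to 12769664, minus strand; the non-coding gene Airn overlaps it on the other strand) stayed within 2-fold between the stages over all hepatocyte barcodes. It had 26 UMIs or 24.2 CPM (15.8 to 35.4) in the early hepatocyte sum and 151 UMIs or 28.7 CPM (24.3 to 33.6) in the macroscopic one, a ratio of 1.19 (0.779 to 1.87). Its level was also similar in early duct barcodes, at 33.2 CPM, and Kupffer barcodes, at 29.8 CPM. Early endothelial barcodes gave 35.7 CPM on 3 UMIs (7.36 to 104), too few to call the level similar. The Poisson intervals of these 4 early classes overlap. Over macroscopic barcodes of 1 class only, Igf2r stood at 28.1 CPM in hepatocyte and 47.5 CPM in endothelial barcodes, a ratio of 0.592 (0.378 to 0.966). Where Malat1, a nuclear RNA, made up 0.05% of UMIs or more, Igf2r in macroscopic hepatocyte barcodes stood at 37.7 CPM, in 35 of 45 barcodes, against 24.5 CPM in early ones, a ratio of 1.54 (1.01 to 2.44). That ratio passed 2-fold with equal weight per barcode and without barcodes above 100000 UMIs. Over all hepatocyte barcodes the log2 ratio ran from -0.47, without the barcodes above 100000 UMIs, to 1.87, thinned to 5000 UMIs, where Igf2r was in 2 early and 9 macroscopic barcodes and not measured.

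Meg3 (ENSMUSG00000021268, chromosome 12, 109541001 to 109571726, plus strand), a maternally read non-coding RNA, had 0 UMIs in the 67 early hepatocyte barcodes, which allows up to 2.79 CPM. In the macroscopic sum it had 283 UMIs or 53.7 CPM (47.6 to 60.3), at least 19.3-fold higher with the early sum set to 3 counts. It was found in 30 of 103 macroscopic barcodes, of which 29 were among the 45 with Malat1, and no barcode held more than 30 of its UMIs. The highest barcode had 887 CPM. At 5000 UMIs per barcode Meg3 was present in 30.0% of Malat1-containing macroscopic barcodes (16.6 to 46.5) and in 0 of 58 early ones (upper limit 6.16%). That limit is for barcodes with a UMI at this depth and not for cells that express Meg3, since 29 of 45 Malat1-containing macroscopic barcodes held it before thinning.

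Dlk1 (ENSMUSG00000040856, chromosome 12, 109452823 to 109463336, plus strand), a membrane protein of hepatoblasts and the paternal partner of Meg3 at a distance of 77.7 kb, was nearly undetected. It had 0 UMIs in early hepatocyte barcodes and 4 UMIs in 2 of the 103 macroscopic ones, 0.759 CPM (0.207 to 1.94). Among early fibroblast barcodes, 5 in all, Meg3 had 7 UMIs in 2 barcodes and Dlk1 had 0. Both barcodes with Meg3 also met another class rule, and the 3 fibroblast barcodes of 1 class only held 0 Meg3 UMIs.

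Peg3 (ENSMUSG00000002265, chromosome 7, 6703892 to 6730431, minus strand), a paternally read zinc-finger gene, was a duct gene in the early library. Its 13 UMIs in early hepatocyte barcodes, 12.1 CPM (6.43 to 20.7), lay in 6 barcodes, all of them among the 15 with Epcam. The 47 others with at most 25% mitochondrial UMIs had 0. The macroscopic sum held 22 UMIs in 11 of 103 barcodes, 4.17 CPM (2.62 to 6.32), all in Malat1-containing barcodes. The level was thus 2.89-fold lower (1.34 to 6.0) by the class rule, a log2 ratio of -1.53. It turned to 1.92 when barcodes meeting a second class rule were left out, with 1 early UMI remaining and levels too low to count as measured, and also at an Alb limit of 1%. At an Alb limit of 0.2% it was -3.61. The direction of Peg3 therefore depends on which early barcodes are counted as hepatocyte.

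Mest (ENSMUSG00000051855, chromosome 6, 30723547 to 30748465, plus strand; Copg2 overlaps it on the other strand), a paternally read hydrolase-fold gene, had 0 early and 1 macroscopic UMI in hepatocyte barcodes. In the macroscopic library 50 of its 51 UMIs lay in endothelial barcodes, as described with the other cell classes. Of the 51, 20 lay in fibroblast barcodes, all of which met another rule, and 30 lay in endothelial barcodes of 1 class only.

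Gpc3 (ENSMUSG00000055653, chromosome X, 52272426 to 52613950, minus strand), a cell-surface heparan sulphate proteoglycan used as a marker of human hepatocellular carcinoma, went the other way from Igf2. It had 30 UMIs in 20 of 67 early hepatocyte barcodes, 27.9 CPM (18.8 to 39.8), with no more than 3 UMIs in 1 barcode. In the macroscopic library 8 UMIs lay in 4 of 103 barcodes, 1.52 CPM (0.655 to 2.99), although those barcodes were deeper. The macroscopic level was 18.4-fold lower (8.23 to 46.4). The 47 early barcodes with under 2 Epcam UMIs and at most 25% mitochondrial UMIs held 27 of the UMIs, at 30.6 CPM in 18 barcodes. At 5000 UMIs per barcode it was present in 6 of 58 early and 2 of 95 macroscopic barcodes (3.89 to 21.2% and 0.256 to 7.40%). The log2 ratio of the thinned counts was -2.30, a smaller difference than the -4.20 of the full sums, on too few UMIs to count as measured.

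Bex1 (ENSMUSG00000050071, chromosome X, 136213972 to 136215513, minus strand), a small adaptor protein gene known from brain and from fetal liver, was present in both stages. Early hepatocyte barcodes ranged from 0 to 1073 CPM with a median of 0, and macroscopic ones from 0 to 1572 CPM with a median of 233 CPM. The sums were 181 UMIs or 168 CPM (145 to 195) and 1528 UMIs or 290 CPM (276 to 305), a ratio of 1.72 (1.48 to 2.02). The early sum was mixed: Bex1 stood at 405 CPM in the 15 Epcam-containing barcodes and at 122 CPM in the 47 others. Without barcodes that met a second class rule, the log2 ratio was 1.02, past 2-fold. At 5000 UMIs per barcode it was present in 34.5% of early (22.5 to 48.1) and 68.4% of macroscopic barcodes (58.1 to 77.6).

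Afp (ENSMUSG00000054932, chromosome 5, 90490737 to 90508907, plus strand), the fetal serum protein used as a blood marker of liver cancer, was low in both stages. It had 3 UMIs or 2.79 CPM (0.575 to 8.15) in early hepatocyte barcodes and 14 UMIs or 2.66 CPM (1.45 to 4.46) in macroscopic ones. Early Kupffer barcodes, which should lack it, had 27 UMIs or 3.89 CPM (2.56 to 5.66), so the early hepatocyte level was not above that of another cell type and is read as background. Macroscopic endothelial barcodes of 1 class only held 0 Afp UMIs, which allows up to 6.20 CPM, so the macroscopic level could not be set against a background of its own library. Alb, its neighbour on the same strand 14.1 kb away, stood at 31151 CPM in the macroscopic hepatocyte sum. That is partly by construction, because Alb defines the class.

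The 250 bases before the start of each gene are shown because these neighbouring genes had very different levels in the same barcodes. Of the 10 genes 9 had a promoter entry in RefSeq. Capitals mark TATAAA and GTTAAT, a site of the hepatocyte factors HNF1; TGTTTAC, the core bound by FOXA factors, was searched as well, all on both strands. Afp is at chr5:90490464-90490713 and Alb at chr5:90460620-90460869, plus strand, GRCm38.p6.
Afp: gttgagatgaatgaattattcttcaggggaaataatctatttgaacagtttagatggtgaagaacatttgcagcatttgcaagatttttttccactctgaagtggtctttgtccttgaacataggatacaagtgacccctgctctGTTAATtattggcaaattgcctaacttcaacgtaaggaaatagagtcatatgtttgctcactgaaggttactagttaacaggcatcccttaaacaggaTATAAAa
Alb: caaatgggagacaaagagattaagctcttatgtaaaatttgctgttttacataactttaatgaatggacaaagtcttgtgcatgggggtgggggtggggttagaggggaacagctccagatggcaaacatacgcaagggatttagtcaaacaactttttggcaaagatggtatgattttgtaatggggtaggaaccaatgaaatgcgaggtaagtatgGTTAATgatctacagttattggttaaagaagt
GTTAAT lies 105 bases before the RefSeq start in Afp and 32 bases before it in Alb, and it is found in 6.43% of 32851 promoter windows of the same length. TATAAA lies 7 bases before the start of Afp and is found in 12.4% of windows. TGTTTAC was in neither window and is found in 3.17% of windows. A match describes letters only.

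Malat1 divided the macroscopic hepatocyte barcodes. It reached 0.05% of UMIs in 45, with a median of 107248 UMIs, and lay below in 58, with a median of 17791 UMIs. The 58 also held fewer mitochondrial UMIs, a median of 0.220% against 7.59%, and fewer genes, a median of 3223.5 against 8497. Depth, Malat1 and mitochondrial share therefore differ together. With Malat1-containing barcodes only, the comparison between stages gave the same 2 genes higher (10.1% of all measured genes) and the same 3 lower (14.8%). Igf2 was 12.1-fold higher (8.64 to 17.6), Meg3 at least 25.6-fold higher and Gpc3 36.4-fold lower (11.3 to 186), the last on 3 macroscopic UMIs. In the early library 4 barcodes lay below the Malat1 limit, with a median of 93.5% mitochondrial UMIs, and they held 1 UMI of Afp and none of the other 9 genes.

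Within the macroscopic library, 4 of 5 measured genes were at least 2-fold lower in Malat1-poor barcodes, where 46.2% of all measured genes were lower, and 0 were at least 2-fold higher, where 1.66% were. With 5 genes measured, nothing is read from that count. Sizes differed among them. H19 stood at 1054 CPM against 2309 CPM, 2.19-fold lower, and Igf2 at 193 CPM against 388 CPM, 2.01-fold lower. Both sizes lie near the threshold and near the median log2 ratio of -0.81 over all genes. Igf2r was 10.5-fold lower (4.41 to 32.9), on 5 UMIs. Meg3 was 33.7-fold lower (11.4 to 164), with 3 UMIs in 1 of 58 Malat1-poor barcodes against 280 UMIs in 29 of 45. Bex1 was 1.40-fold higher (1.26 to 1.56) in Malat1-poor barcodes, at 368 CPM against 262 CPM. Without barcodes above 100000 UMIs, with equal weight per barcode and with median-of-ratios scaling, Igf2r and Meg3 were still 2-fold lower and H19 and Igf2 were not. Thinned to 5000 UMIs, H19 and Meg3 were.

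H19 and Igf2 were not limited to macroscopic barcodes that passed the Alb limit. Among macroscopic barcodes with 0.05 to 0.5% Alb, a range chosen after the values had been seen, H19 stood at 2340 CPM in 34 of 47 barcodes, Igf2 at 220 CPM and Bex1 at 323 CPM, beside 1913 CPM of the apolipoprotein gene Apoa1. Of these 47 barcodes 38 were Malat1-poor. The 557 early barcodes of that Alb range, of which 413 met the Kupffer rule and 83 the duct rule, held H19 at 1.20 CPM and no Igf2. In barcodes of no class, H19 had 1752 UMIs in 53 of 104 macroscopic barcodes, 1322 CPM (1260 to 1385), and 1 UMI in 513 early barcodes. There H19, Igf2 and Bex1, of 4 measured genes, were called higher in the macroscopic library (3 genes; 17.2% of all measured genes) and Igf2r was 3.58-fold lower (22.3% lower). This class is a remainder, and its make-up differs between the libraries. It also takes in most of the 47 macroscopic barcodes of 0.05 to 0.5% Alb, of which 1 met the Kupffer rule and 1 the endothelial rule. The H19 values of these 47 and of the macroscopic barcodes of no class are therefore not separate. Macroscopic barcodes below 0.05% Alb, of any class, held 403 H19 UMIs in 28 of 91 barcodes, 286 CPM (259 to 315).

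Across cell classes of the early library, H19, Igf2, Gpc3 and Bex1 were at least 2-fold higher in hepatocyte than in Kupffer barcodes, 4 of 5 measured genes, where 29.5% of all measured genes were. H19 was 463-fold higher (373 to 580). Of the 85 H19 UMIs in Kupffer barcodes, 67 came from 1 barcode, and Kupffer barcodes of no other class held 18 UMIs or 2.63 CPM. Igf2 was at least 73.1-fold, Gpc3 64.5-fold (20.1 to 330) and Bex1 106-fold higher (58.0 to 217). Thinned to 1000 UMIs per barcode, 2 genes were measured, and H19 was the 1 called higher. With 4 macroscopic Kupffer barcodes, the same comparison was not made in that library.

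Hepatocyte and duct barcodes of the early library both held Gpc3, Igf2r and Bex1, the last at a lower level in hepatocyte barcodes. H19, Igf2 and Peg3 lay almost only in 1 of these classes. Over barcodes meeting only 1 class rule (54 and 87), H19 stood at 6459 CPM against 1.52 CPM, and Igf2 at 36.5 CPM against 0 UMIs; these were the 2 of 6 measured genes at least 2-fold higher in hepatocyte barcodes (10.8% of all measured genes). Peg3 stood at 1.07 CPM against 117 CPM, with 154 UMIs in 40 of 87 duct barcodes. Of these UMIs, 38 lay in 1 barcode below 0.05% Alb and 38 in 1 barcode of 0.25 to 0.5% Alb. Bex1 was 2.25-fold lower in hepatocyte barcodes (1.84 to 2.76), at 139 CPM against 313 CPM. Peg3 and Bex1 were the 2 genes at least 2-fold lower, where 28.2% of all measured genes were. Gpc3 at 28.9 CPM against 21.3 CPM and Igf2r at 24.7 CPM against 32.7 CPM had ratios of 1.36 (0.771 to 2.39) and 0.754 (0.434 to 1.28), intervals that include equality.

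In the macroscopic library the endothelial barcodes served for comparison. Over barcodes of 1 class only (98 hepatocyte and 27 endothelial), H19 at 1994 CPM against 18.6 CPM, Igf2 at 345 CPM against 0 UMIs, Meg3 at 54.8 CPM against 0 UMIs and Bex1 at 283 CPM against 10.3 CPM were higher in hepatocyte barcodes, 4 of 6 measured genes (23.6% of all measured genes). Mest was the 1 gene lower (33.4% of all measured genes), at 0.213 CPM against 62.0 CPM (41.8 to 88.5), with 30 UMIs in 11 of 27 endothelial barcodes. In early endothelial barcodes of 1 class only, Mest had 1 UMI in 18 barcodes, 23.5 CPM (0.595 to 131), an interval that includes the macroscopic level. The endothelial rule with overlaps gave 526 H19 UMIs, of which 516 lay in 1 barcode that also met another rule.

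**Figure D4:**
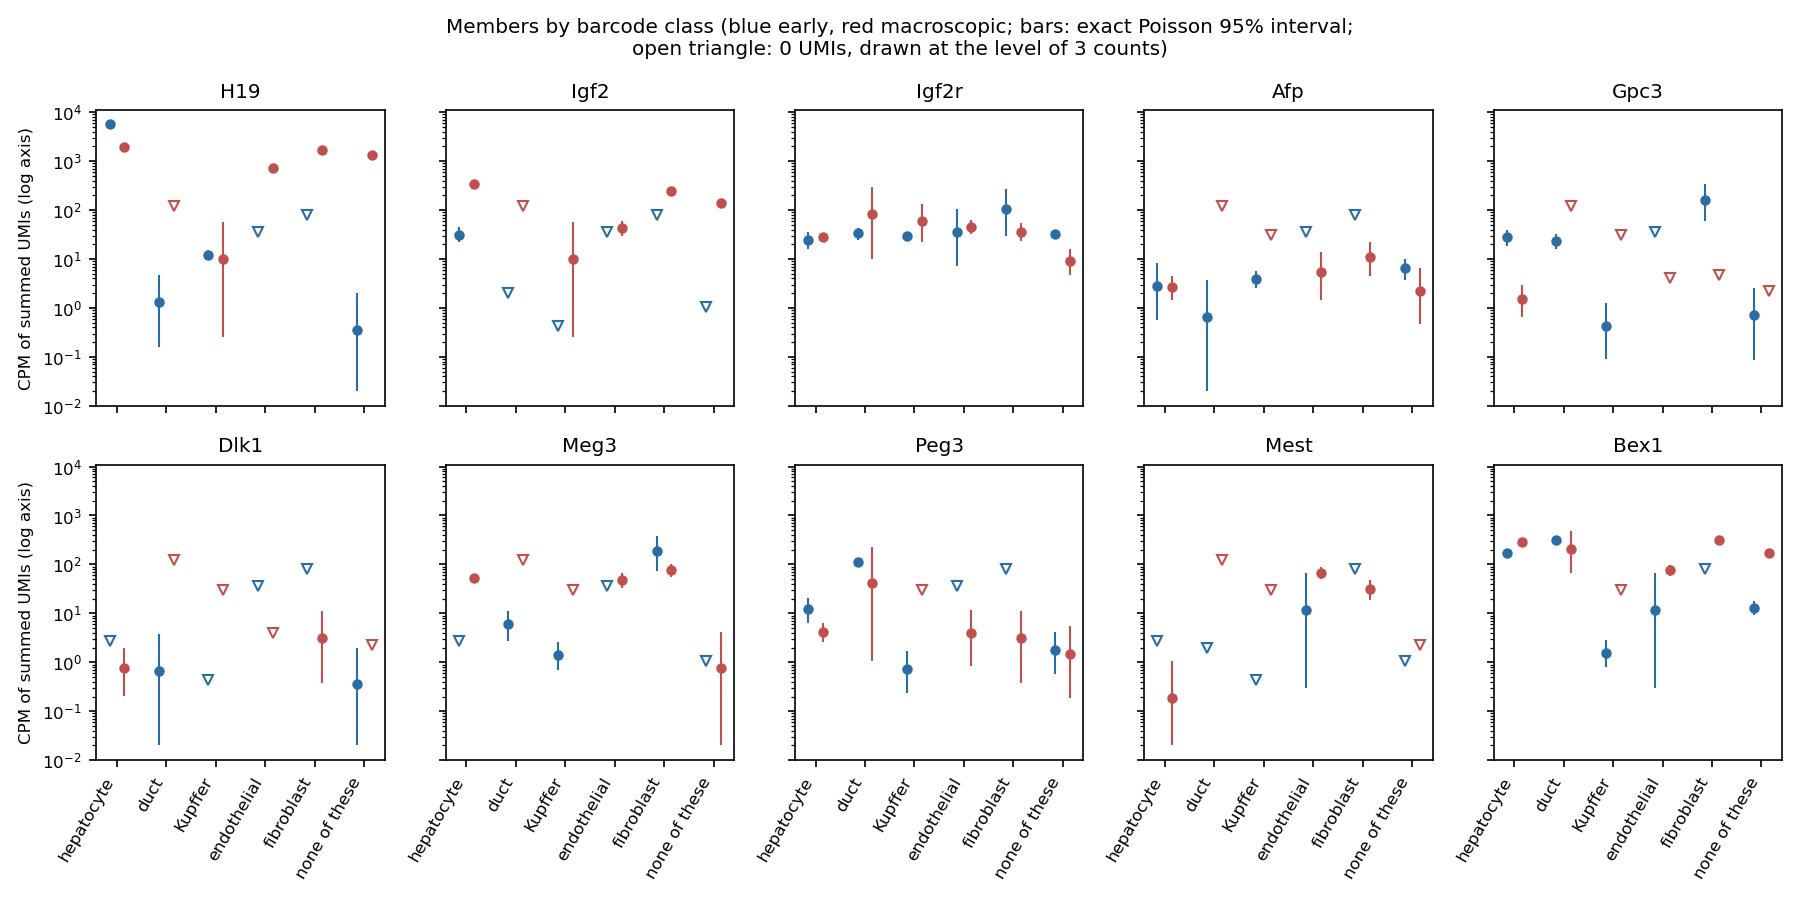
CPM of summed UMIs on a log axis for each gene (panels) by barcode class (x axis), early in blue and macroscopic in red, with exact Poisson 95% intervals; open triangles mark 0 UMIs, drawn at the level of 3 counts, and classes include barcodes that meet several rules. H19 and Igf2 are highest in hepatocyte barcodes and also high in macroscopic fibroblast barcodes, which overlap with other classes, and in macroscopic barcodes of no class, Peg3 is highest in early duct barcodes (110 CPM) and Mest in macroscopic endothelial barcodes (67.3 CPM), whereas Igf2r was found in all classes, from 9.05 CPM in macroscopic barcodes of no class to 107 CPM on 4 UMIs in early fibroblast barcodes.

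By likeness of pattern over the 40 thinned macroscopic hepatocyte barcodes with Malat1, genes closest to H19 among 1006 candidates were Itih4 (rho 0.72), Fga (0.71) and Eef2 (0.64). Itih4 and Fga encode secreted plasma proteins and Eef2 a translation factor. Among those closest to Igf2 were Fga (0.62) and the apolipoprotein gene Apoa2 (0.57). Closest to Bex1 were the ribosomal protein genes Rplp2 (0.58) and Rpl23 (0.55) and the mitochondrial pyruvate carrier gene Mpc1 (0.56). The median rho over the candidates was near 0 for all 3 (-0.0017, 0.015 and 0.028).

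Other genes of the same pathways were followed through 7 lists, described by counts beside the 8.45% of genes higher, the 18.9% lower and the median log2 ratio of -0.29 over all measured genes. Of 15 genes of the IGF axis 11 were measured, with 1 higher (Igf2) and 4 lower, and a median of -0.13 that turned to 0.26 over Malat1-containing barcodes, where 12 were measured and the median of all genes was -0.13. Igf1, the growth factor made by adult hepatocytes, stood at 240 CPM early and 52.8 CPM macroscopic, 4.55-fold lower (3.82 to 5.40). Igf1r, the receptor that signals for both ligands, was 46.5-fold lower (11.2 to 412) on 2 macroscopic UMIs, and the binding protein gene Igfbp7 25.9-fold lower (19 to 36.1). Of the early UMIs, however, 17 of 19 for Igf1r and 253 of 254 for Igfbp7 lay in the 15 Epcam-containing barcodes, whereas 211 of 258 for Igf1 lay in the 47 others. The most abundant gene of the list, Igfbp4, was at 881 CPM and 1007 CPM.

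Among 23 maternally expressed imprinted genes, 22 were among the features and 11 measured, with 2 higher and 6 lower and a median of -1.10. Without H19, Meg3 and Igf2r the numbers were 1 higher and 5 lower of 8, with a median of -1.16. Cdkn1c, an inhibitor of cyclin-dependent kinases, was 7.13-fold lower (4.83 to 10.6), at 62.3 CPM early and 8.73 CPM macroscopic, and 63 of its 67 early UMIs lay in the 47 Epcam-poor barcodes. Phlda2 was 11.4-fold higher (3.09 to 95.6) on 2 early UMIs. Grb10, an adaptor of insulin signalling, was 5.71-fold lower (2.45 to 13.5), with all 14 early UMIs in Epcam-containing barcodes. Of 23 paternally expressed genes 7 were measured, with 2 higher (Igf2 and Peg10) and 2 lower (Peg3 and Kcnq1ot1) and a median of -0.35. Peg10, derived from a retrotransposon, had 2 early and 61 macroscopic UMIs, 6.23-fold higher (1.65 to 52.6). Kcnq1ot1, a nuclear non-coding RNA, was 2.26-fold lower (1.84 to 2.75) over all hepatocyte barcodes and 1.68-fold lower over those with Malat1.

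Genes of imprint maintenance and DNA methylation, with oxidases of methylcytosine among them, were low in number of UMIs and mostly lower. Of 9 measured, 5 were at least 2-fold lower and 0 higher, with a median of -1.02. The DNA methyltransferase gene Dnmt3a was 2.69-fold lower, the methylcytosine oxidase genes Tet3 and Tet2 2.49-fold and 2.10-fold lower, and Zfp445, a zinc-finger protein of imprinted loci, 2.47-fold lower. Uhrf1, the most abundant of the list, stood at 123 CPM and 94.7 CPM. Over Malat1-containing barcodes 1 of the 9 was lower (14.8% of all genes there) and the median was -0.68 (-0.13 over all genes), with Dnmt3a the 1 still past 2-fold.

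Oncofetal and hepatoblast genes were mixed, with 7 of 19 measured genes higher, 5 lower and a median of 0.17, or 6 and 3 of 15 without the genes described above. Tff3, a secreted trefoil peptide, had 6 early and 2625 macroscopic UMIs, at 5.58 CPM and 498 CPM, 89.3-fold higher (41.0 to 244). Scd2, a fatty acid desaturase of fetal liver, was 6.27-fold higher (4.54 to 8.90). The list of genes known to act on Afp or H19 had 1 higher and 2 lower of 15, with a median of -0.17. Zhx2, a postnatal repressor of both in mouse liver, stood at 5.58 CPM early and 15.8 CPM macroscopic, 2.82-fold higher (1.24 to 7.92). Its relative Zhx3 was 2.18-fold lower and Foxa1 2.75-fold lower. Over Malat1-containing barcodes the list had 1 higher and 1 lower of 15, with a median of 0.10 (-0.13 over all genes). At most 1 of Zhx3 and Foxa1 thus stayed 2-fold lower there. Ctcf, the insulator protein gene, was 1.95-fold lower (1.55 to 2.44), short of 2-fold, and Zbtb20, a repressor of Afp, stood at 492 CPM and 437 CPM. Of the oncofetal RNA-binding and let-7 genes 3 were measured, with a median of -0.66. Hmga1, a chromatin protein, was 8.58-fold higher (2.3 to 72.0) on 2 early UMIs. Dis3l2 and Igf2bp3 were within 2-fold.

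**Figure D5:**
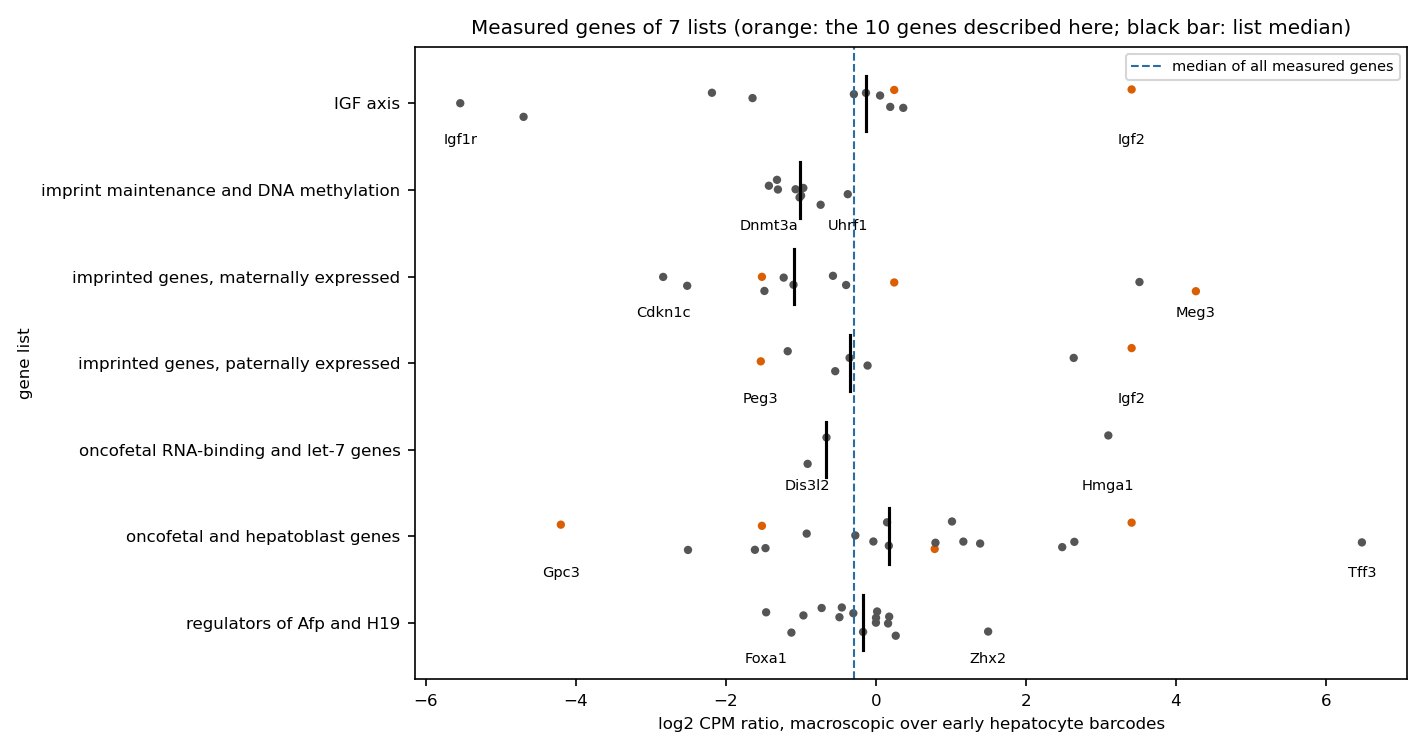
Log2 CPM ratio of macroscopic over early hepatocyte barcodes (x axis) for the measured genes of 7 lists (y axis), 1 point per gene, with the genes described here in orange, list medians as black bars and the median of all measured genes as a dashed line at -0.29. The lowest and highest gene of each list are named; the medians of the maternally expressed (-1.10) and methylation (-1.02) lists lie left of the dashed line.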

How the data were processed

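The deposited files hold raw UMI counts per gene and barcode; per the file headers they were written by Cell Ranger 3.0.2, and the submitters' processing notes name mm10 and Seurat 2.3.0, without roles. The authors' filtering of barcodes and the annotation used for counting are not given in the sources used here. Barcodes with at least 1000 UMIs were kept, each library separately, and UMIs were summed per class. No doublet caller was run; barcodes meeting 2 class rules, or above 100000 UMIs, were left out as alternatives. Kept totals were 12202299 and 7260252 UMIs, so 1 UMI of a hepatocyte sum is 0.929 CPM early and 0.190 CPM macroscopic. Zero counts were set to 3 counts over the sum for a lower bound and for the level that a count of 0 allows. Such a bound leaves out the counting error of the other sum. The 10 genes, the lists and the class rules were chosen with earlier results of these data known. Named besides the 10 are, per list, the 4 measured genes with the largest ratio and the most abundant, and for each of the 10 found in at least 50% of thinned barcodes the 3 genes most like it, of which 1 is not reported here. The comparison was tested on simulated data that held counting error alone, so the test does not cover spread between barcodes, mice or libraries. Python 3.11.15, NumPy 2.4.6, SciPy 1.17.1 and pandas 2.3.3 were used. Rian and Peg13 of the lists were not among the features.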

Additional observations from a re-analysis of the deposited data

Results flagged for a closer look

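H19 had opposite directions in hepatocyte and endothelial barcodes: the log2 ratio of macroscopic over early was -1.52 in the first and 4.31 in the second, a lower bound against 0 early UMIs. The difference was not tested. Of the 526 macroscopic endothelial H19 UMIs, 516 lay in 1 barcode, and endothelial barcodes of 1 class only held 9 UMIs against 0, too few for a ratio.

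Some of the genes were also present in barcodes below 1000 UMIs, which no comparison used. The 601 early ones held 6 UMIs of Igf2r and 4 of Bex1, and the 15 macroscopic ones held 7 UMIs of H19 in 5 barcodes, above the 3 counts that a count of 0 allows.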

How the results depend on the processing

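No paired analysis was possible because each stage has 1 library, and no replicate could be left out. The count of genes higher between stages was 2 to 3 over all 13 alternatives. The count lower was 2 or 3 except for 1 (H19, of 4 measured) with barcodes thinned to 5000 UMIs, where fewer genes are measured. The 4 genes lower in Malat1-poor barcodes became 2 with equal weight per barcode, thinned to 5000 UMIs, without barcodes above 100000 UMIs and with median-of-ratios scaling. The 4 genes higher in hepatocyte than Kupffer barcodes became 1 (of 2 measured) when thinned to 1000 UMIs. Peg3 reversed, from -1.53 to 1.92, with Alb at least 1% and with barcodes of a second class left out. The other causes were not tested. Bex1 passed 2-fold under 4 alternatives (1.02 to 1.08). Scaling by median of ratios moved H19 to -1.23 and Igf2 to 3.70. Leaving out Epcam-containing barcodes was chosen after seeing the data. The macroscopic comparison of hepatocyte with Kupffer barcodes was not run, with 4 Kupffer barcodes.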
